A study of Mus musculus with 4 samples.

Results

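Layer 5/6 near-projecting (NP) neurons were chosen by their counts of marker genes among nuclei from cortex and hippocampus, taken from mice 5 weeks old. A nucleus with more than 600 genes detected and less than 5% mitochondrial UMIs (unique molecular identifiers, 1 per captured RNA molecule) was a member when it held at least 1 UMI of Slc17a7, at most 1 UMI of Gad1 and Gad2 together, at least 2 UMIs of Tshz2, and at least 1 UMI of 3 or more of the 7 genes Vwc2l, Slc17a8, Trhr, Lypd1, Hmga2, Lcp1 and Myzap. This NP rule found 433 of 36094 kept nuclei, and of 19737 glutamatergic nuclei (Slc17a7 of at least 1, Gad1 and Gad2 of at most 1). The 4 libraries each came from 1 mouse on the C57BL/6J background, 2 labelled Sel1L flox/flox and 2 labelled Sel1L Syn-Cre, in which Synapsin I-Cre was crossed to the same floxed allele so that Sel1L would be lost from neurons. All 4 mice thus carried floxed Sel1L, and this promoter limits Cre to neurons. In Syn-Cre mice of this age, the paper reported SEL1L protein missing from only a subset of cortical neurons. The nuclei of these libraries can thus not all be taken to lack it. Nuclei were stained, sorted and run with 10x 3′ v3 chemistry. In the order Sel1L flox/flox replicates 1 and 2 and Sel1L Syn-Cre replicates 1 and 2, kept nuclei numbered 12362, 8436, 8065 and 7231, with 122716599, 76589308, 75144161 and 73992811 UMIs. The members numbered 176, 77, 85 and 95 and held 2877732, 1069727, 1206233 and 1228273 UMIs, so that the first library gave the deepest measurement. All lists of 4 values below keep this order.

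The libraries did not all match their labels. The CRE feature of the count table had 490, 0, 262 and 260 UMIs in kept nuclei, so the library labelled Sel1L flox/flox replicate 1 held Cre transcripts at 3.99 CPM (counts per 1000000 UMIs), against 3.49 and 3.51 CPM in those labelled Sel1L Syn-Cre. Members held 12, 0, 2 and 0 UMIs of CRE, in 6, 0, 2 and 0 nuclei, and a count of 0 allows up to 2.80 CPM in Sel1L flox/flox replicate 2 and up to 2.44 CPM in Sel1L Syn-Cre replicate 2. Few Cre transcripts were thus counted in members, and those labelled Sel1L Syn-Cre held fewer than those of Sel1L flox/flox replicate 1. Replicate 1 of each genotype was male and replicate 2 female by Xist (0, 1170, 0.829 and 1196 CPM in members), so sex and replicate number cannot be told apart. Counts of called genes are given below with and without each library, and beside named genes where the call depended on a library in doubt or on likely doublets. For the comparison with other classes of glutamatergic nuclei, the calls left without likely doublets are given as a number.

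NP neurons are glutamatergic cells of the deep cortical layers whose axons stay close to the cell body, unlike the corticothalamic (CT), extratelencephalic (ET) and intratelencephalic (IT) neurons around them. They are recognized by Tshz2, a zinc finger homeobox gene, and Vwc2l, which encodes a secreted von Willebrand factor C domain protein. SEL1L is the adaptor of the HRD1 ubiquitin ligase in ER-associated degradation (ERAD), which clears misfolded proteins from the endoplasmic reticulum (ER). When such proteins build up, the sensors IRE1α, PERK and ATF6 switch on chaperone and ERAD genes, the unfolded protein response (UPR).

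The genes of the rule chose the members, and their levels are a description. Tshz2 stood at 2924, 2901, 2976 and 2900 CPM in members and at 297 to 448 CPM in other glutamatergic nuclei. Vwc2l stood at 975, 965, 1093 and 1074 CPM, against 65.1 to 76.1 CPM. Slc17a8, the vesicular glutamate transporter VGLUT3, was at 17.1 to 24.3 CPM and had a UMI in 15.8% to 20.8% of members. Trhr, the receptor for thyrotropin-releasing hormone, was at 44.8 to 79.5 CPM, and Lypd1, a modulator of nicotinic receptors, at 101 to 133 CPM. Each of these 5 markers was at least 4.84 times its level in the other glutamatergic nuclei of the same library. Of the markers that the rule did not use, Fezf2 (56.6 to 69.2 CPM), Etv1 (261 to 311), Htr2c (346 to 509), Sla2, Rapgef3, Nxph2 and Ptpru were all higher in members in every library, by 2.65-fold or more.

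The label held for most members and not for all of them. Glutamatergic nuclei were placed by principal components computed without the genes of the rule, and the 20 nearest nuclei of each member were counted. Of the 433 members, 275 (63.5%) had 10 or more members among their 20 neighbours, and these are called core members here. Of the other glutamatergic nuclei, 104 (0.539%) did, all of them with fewer than 3 of the 7 markers and a median of 7298.5 UMIs, so the rule missed some shallow nuclei that lie among its members. Per library, 109, 56, 54 and 56 members were core. The remaining 158 members differed: 78 had no more than 2 member neighbours, their median depth was 16614.5 UMIs against 10144 in core members, and 30.4% of them, against 2.55%, were among the nuclei that Scrublet scored as the likeliest doublets.

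The marker lists differed between the core and the rest, given here as a description, since neighbours were found from expression in the same nuclei. On the further NP markers, core members held 1393 CPM, summed, and the other 158 members 475 CPM. Among lists of other cells, the opposite order was found, for example, with 70.9 against 497 CPM for oligodendrocyte markers, 147 against 924 CPM for L4/5 IT markers and 27.7 against 90.2 CPM for GABAergic markers. The L6 CT and L6 IT lists did not follow that order. Core members held 854 CPM on L6 CT markers, of which the transcriptional corepressor Tle4 was the most abundant, against 411 CPM in the others, and 18.8 against 17.6 CPM on L6 IT markers. L6b markers were at 1.27 CPM and astrocyte markers at 4.77 CPM in core members. The plot of member neighbours shows both groups. Tests between genotypes are given for all members, and the main ones for core members too. The levels and ratios of NP genes, the receptor ratios and the NP share are those of all members, core or not.

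**Figure D1:**
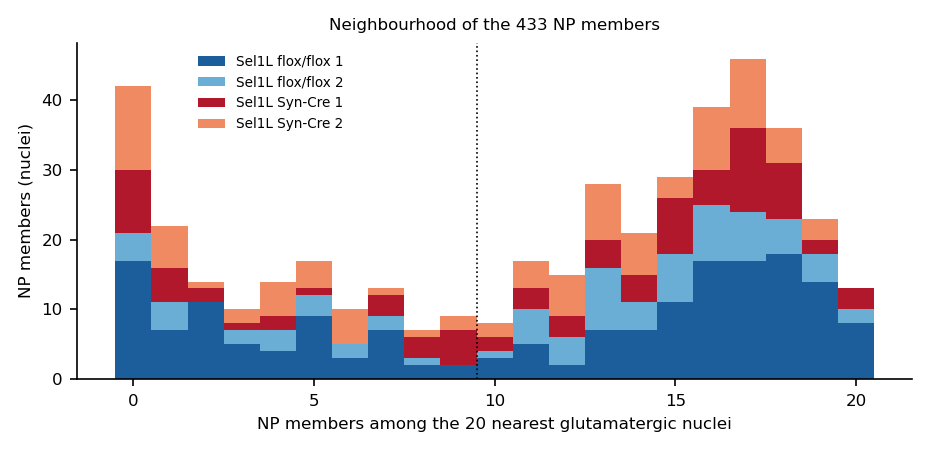
Number of NP members (y axis, nuclei, stacked by library) against how many of a member's 20 nearest glutamatergic nuclei were members too (x axis). The dotted line marks 10 neighbours: 275 members lie to its right and 158 to its left, and all 4 libraries are found on both sides.

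At the edges of the rule, 7 members had exactly 2 UMIs of Tshz2 and none of them was core, and 5 nuclei were left out for having 1 UMI. The rule turned mostly on the number of other markers. Exactly 3 of them were seen in 217 members (94 core) and exactly 2 in 632 nuclei left out (79 with 10 or more member neighbours).

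Outside the rule, and among genes at 20 CPM or more in members and above 0 in other glutamatergic nuclei in all 4 libraries, the 15 genes are named whose lowest ratio of members to those nuclei over the libraries was highest. The floor leaves out lower genes such as Sla2 (5.21 to 14.1 CPM in members), whose ratio was 7.51 to 18.4. Kcnip1, a subunit of A-type potassium channels, was at 263 to 398 CPM in members and 13.2 to 16.7 CPM in the other nuclei, a ratio of 17.8 to 25.0. Sntb1, a syntrophin of the dystrophin complex, followed with a ratio of 17.4 to 24.8. Nxph1, a secreted ligand of neurexins, had a ratio of 15.9 to 31.0 and ranged from 333 to 807 CPM, with the highest value in Sel1L flox/flox replicate 2. Grik1, a kainate receptor subunit, was at 746 to 846 CPM against 37.3 to 49.95 CPM. The others were Col24a1 and Abi3bp of the extracellular matrix, the Wnt antagonist Dkk2, the neuropeptide S receptor Npsr1 (ratio 8.82 to 16.3), the receptor tyrosine kinase Alk (8.39 to 11.2), Rapgef3, Stard5, Htr2c, Olfm3 (5.90 to 7.42) and the noncoding 9330158H04Rik and Gm15942. Of 6018 genes at 20 CPM or more in members, 124 were at least 2-fold and 27 at least 4-fold higher in members in all 4 libraries. These levels and ratios are of all members, core or not. Core members and the other 158 held 467 and 193 CPM of Kcnip1, and 707 and 188 CPM of Nxph1. They held 1251 and 304 CPM of Grik1, and 313 and 76.3 CPM of Npsr1. The rest of the 15 were not split gene by gene.

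Of 3229 genes at 50 CPM or more in other glutamatergic nuclei, 35 were at least 2-fold and 1 at least 4-fold lower in members in every library, a count that the different filter keeps from being set against that of enriched genes. The 1 gene was the noncoding RNA 4921539H07Rik, at 4.07 to 11.5 CPM in members against 59.6 to 77.5 CPM. A830036E02Rik, Maml3 (a coactivator of Notch signalling), Iqgap2, Frmd6, the immediate early gene Junb, the transcription factor Runx2 and the secreted Tafa1 (383 to 483 against 1166 to 1279 CPM) followed. Among transmitter receptors and channels, Grik3 (ratio 3.03 to 3.19), Gabrg3 (2.52 to 3.08), Cacna2d2 (2.45 to 5.88), Grm4 (2.41 to 4.50) and Grin3a (2.18 to 3.58) stood higher in members, whereas Gabbr2 (0.443 to 0.549), Gria3 (0.522 to 0.637), Gria1 (0.504 to 0.666) and Kcnq5 (0.435 to 0.621) stood lower.

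**Figure D2:**
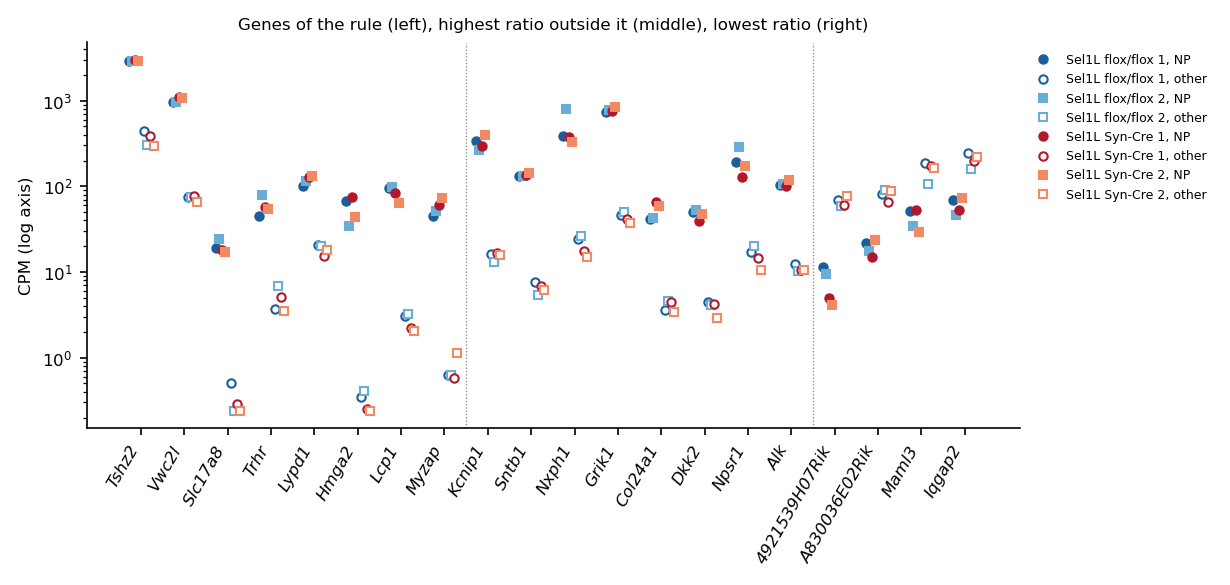
CPM (y axis, log scale) of genes of the rule, of the 8 genes with the highest and the 4 with the lowest ratio outside the rule, in NP members (filled) and other glutamatergic nuclei (open), 1 point per library. In every library Tshz2 is near 2900 CPM in members and at most 448 CPM in other nuclei.

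Whether the genotypes differed in their number of NP nuclei was asked of each library's share. Members were 2.71%, 1.72%, 1.94% and 2.16% of glutamatergic nuclei (Wilson 95% intervals 2.34 to 3.13, 1.38 to 2.14, 1.58 to 2.40 and 1.77 to 2.64, which cover counting error only). Both Sel1L Syn-Cre values lay between the Sel1L flox/flox values. The means were 2.21% ± 0.702 and 2.05% ± 0.155 (SD, n = 2 mice each), a difference of −0.160 percentage points (exact permutation test, two-sided, p = 1, where 2 against 2 cannot go below 0.333). No difference was detectable, and the direction changed without Sel1L flox/flox replicate 1 (0.337 points). It also changed with all kept nuclei as the denominator (0.0156 points) and with 2 of the 7 markers required (0.172 points).

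Sel1l itself (chr12:91806043-91849157, minus strand, GRCm38) was not lower in the members of libraries labelled Sel1L Syn-Cre. It had 253, 72, 151 and 120 UMIs, or 87.9, 67.3, 125 and 97.7 CPM. Both Syn-Cre libraries stood above both flox/flox libraries, by a log2 fold change of 0.43 ± 0.18 (SE) with an unadjusted p of 0.0318 and an adjusted p of 0.551 (edgeR). In core members the change was 0.58 ± 0.20 (adjusted p = 0.393). With 1 library left out, the change in all members ranged from 0.20 (without Syn-Cre replicate 1) to 0.66 (without flox/flox replicate 1). Counts at the 3′ end of a transcript include molecules that lack a floxed exon, so they do not check the deletion, and how many members had lost Sel1l was not measured here.

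Between genotypes, 15 of 10533 genes tested passed in all members (0.142% of genes, edgeR quasi-likelihood test on UMIs summed per library, Benjamini-Hochberg adjusted p under 0.05). A noncoding host transcript of microRNAs was the clearest rise, and genes of myelin made up much of the fall. Of the 15, 2 rose (0.019%) and 13 fell (0.123%) in the libraries labelled Sel1L Syn-Cre. At an unadjusted p under 0.05 there were 875 genes (8.31%), 437 higher and 438 lower (4.15% and 4.16%). DESeq2 called 9 genes, all among the 15, and not St18, Opalin, Mog, Mobp, Rnf220 or 1810034E14Rik. Without the Scrublet doublets edgeR called 2 genes, 1 higher and 1 lower. With the replicate number as a term in the fit it called 132, 42 higher and 90 lower. Without Sel1L flox/flox replicate 1 the count was 91, without replicate 2 it was 188, and without Sel1L Syn-Cre replicate 1 or 2 it was 53 or 58. In those fits the lone library of a genotype was assumed to vary like the pair, and 12, 15, 14 and 14 of the 15 genes were among the calls.

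1700016P03Rik (chr11:75172560-75177633, plus strand, GRCm38) is a noncoding transcript whose body holds Mir212 and Mir132 on the same strand. It had 45, 18, 69 and 93 UMIs in members, or 16.2, 17.6, 58.2 and 74.3 CPM scaled by TMM (the edgeR scaling used for all CPM beside a fold change). Both Syn-Cre libraries stood far above both flox/flox libraries. The log2 fold change was 1.99 ± 0.23 (adjusted p = 6.83e-04). In core members it was 2.33 ± 0.34 (15.9, 11.6, 56.0 and 89.96 CPM, adjusted p = 0.00191), and without the Scrublet doublets 1.99 (adjusted p = 0.0157). The call was lost with at least 4 of the 7 markers required (1.80, edgeR adjusted p = 0.226) and among members with no UMI of 8 marker genes of other cells (1.36, adjusted p = 0.798). It was also lost when tested against a log2 fold of 1 (adjusted p = 0.134). 1700016P03Rik stood at 36.2 CPM in core members and 34.3 CPM in the other 158. The counts are of the long transcript, and the mature microRNAs were not measured. The 3p arms are shown because both carry the same seed, bases 2 to 8, in capitals in the sequences that follow (RefSeq, GRCm38.p6).
mmu-miR-212-3p (chr11:75173443-75173464, plus strand): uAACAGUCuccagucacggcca
mmu-miR-132-3p (chr11:75173723-75173744, plus strand): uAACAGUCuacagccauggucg

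The same transcript passed in the reference classes of glutamatergic nuclei described further on, with log2 fold changes of 2.19 in L6 CT-rule nuclei (adjusted p = 0.0355) and 1.93 in L4/5 IT-rule nuclei (adjusted p = 0.0249). 1700016P03Rik overlaps Ovca2, which lies on the opposite strand. The other gene that rose, 1810034E14Rik (chr13:64248700-64271852, plus strand), is an antisense transcript that overlaps Cdc14b. It was at 28.1, 35.1, 59.9 and 80.7 CPM, with a log2 fold change of 1.20 ± 0.22 (adjusted p = 0.0398), and in core members the change was 1.38 ± 0.24 (adjusted p = 0.0135). Its call in all members was lost with DESeq2 (adjusted p = 0.456), without the Scrublet doublets (1.10, adjusted p = 0.260) and without Sel1L Syn-Cre replicate 2 (0.96, adjusted p = 0.133).

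Of the 13 genes that fell, 4 belong to the 6 oligodendrocyte markers, among them Mbp, Mog and Mobp. Mbp, myelin basic protein, had 579, 154, 57 and 65 UMIs (208, 150, 48.1 and 51.9 CPM) and a log2 fold change of −1.87 ± 0.18 (adjusted p = 2.61e-04). Mag (25.2, 19.5, 2.53 and 6.39 CPM) did not pass (adjusted p = 0.0581). Without Sel1L flox/flox replicate 1, Mog (−2.10, adjusted p = 0.117) and Mobp (−1.24, adjusted p = 0.408) did not pass. The list's median log2 fold change was −2.30, against 0.01 over all genes tested. St18, a zinc finger transcription factor, changed by −3.21 ± 0.35 with 338, 80, 5 and 22 UMIs, and Bcas1, a gene of myelinating oligodendrocytes, by −3.25 ± 0.58. Opalin, a myelin glycoprotein, had 51, 12, 0 and 1 UMIs (adjusted p = 0.0170), and its summed level was 38.9 times higher in the flox/flox libraries (exact 95% counting interval 6.72 to 1559). Without Sel1L flox/flox replicate 1 its counts were too low for it to be tested.

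Oligodendrocyte markers were higher in both flox/flox libraries than in both Syn-Cre libraries in other glutamatergic nuclei too, and their part in the fall was not tested. The 6 markers together had 1278, 323, 105 and 124 UMIs in members (444, 302, 87.0 and 101 CPM, Mbp the most abundant and none of the 6 at 0), and 376, 241, 165 and 136 CPM in other glutamatergic nuclei. At least 1 such UMI was found in 71.0%, 58.4%, 52.9% and 41.1% of members. In the flox/flox libraries most came from few nuclei: 13, 3, 1 and 2 members with 10 or more such UMIs held 81.0%, 76.5%, 35.2% and 49.2% of them. Nuclei with 20 or more such UMIs were 14.1%, 11.8%, 3.88% and 3.72% of kept nuclei. In core members Mbp changed by −0.83 (adjusted p = 0.511), and of the 2 markers tested there 0 passed (edgeR), both lower at an unadjusted p under 0.05. Without the Scrublet doublets Mbp changed by −0.31 (adjusted p = 0.810) and St18 by −0.52 (adjusted p = 0.933). Among members with no UMI of 8 marker genes of other cells, edgeR called 0 of 7607 genes, with 438 at an unadjusted p under 0.05. These members numbered 57, 31, 45 and 45. Their log2 fold change was −0.97 for Cdh18, 0.93 for 1810034E14Rik and 1.36 for 1700016P03Rik, but −0.32 for Pcdh9 and −0.06 for Rnf220.

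The other genes that fell were Zfp804b (a zinc finger gene), Pbx3 (a homeodomain factor), Dock10 (a guanine nucleotide exchange factor), Rnf220 (a ubiquitin ligase), and Pcdh9 and Cdh18 (cadherins of cell adhesion). Zfp804b was at 210, 187, 85.2 and 74.3 CPM, a log2 fold change of −1.33 ± 0.15 (adjusted p = 4.79e-04). It also passed without the Scrublet doublets, at −1.98 (adjusted p = 0.0189). In core members it changed by −1.01 (adjusted p = 0.393), and in members with no UMI of 8 marker genes of other cells by 0.18 (adjusted p = 0.985). There Pbx3 changed by 0.57 (adjusted p = 0.932). Without the Scrublet doublets, Pbx3 (−1.07, adjusted p = 0.566), Dock10 (−0.76, adjusted p = 0.759), Rnf220 (−0.52, adjusted p = 0.806), Pcdh9 (−0.58, adjusted p = 0.303) and Cdh18 (−0.83, adjusted p = 0.101) did not pass. Several of these genes had most of their counts outside the core. Dock10 was at 9.22 CPM in core members and 161 CPM in the other 158, Pbx3 at 12.7 and 95.2 CPM, Zfp804b at 40.7 and 260 CPM, and Rnf220 at 28.0 and 85.9 CPM. Cdh18 went the other way, at 2108 and 1029 CPM, and its fall held in core members (−0.66 ± 0.12, adjusted p = 0.0150; −0.75 ± 0.13 in all members). Pcdh9 changed by −0.64 ± 0.12 in all members and by −0.53 ± 0.11 in core members (adjusted p = 0.0488).

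In the 275 core members, 14 of 8244 genes passed, 5 higher (0.0607%) and 9 lower (0.109%), beside 735 at an unadjusted p under 0.05 (8.92%). Neighbours were found from variable genes of the same nuclei, so genes tested here could take part in choosing the core. What that did to these calls was not tested. Of the 14, 4 (1700016P03Rik, 1810034E14Rik, Cdh18 and Pcdh9) were among the 15 of all members. DESeq2 called 3 of the 14, namely 1700016P03Rik, Il1rapl2 and Cdh18. Il1rapl2, a synaptic receptor-like protein, was at 128, 160, 38.4 and 20.4 CPM, with a log2 fold change of −2.25 ± 0.27 (adjusted p = 2.28e-04). Both Syn-Cre libraries lay below both flox/flox libraries. Il1rapl2 is an L4/5 IT marker and stood at 90.6 CPM in core members and 825 CPM in the other 158. In all members it was at 582, 437, 184 and 539 CPM and did not pass (adjusted p = 0.719). Cntn5, an adhesion molecule of the contactin family, was at 248, 329, 118 and 56.0 CPM, a change of −1.70 ± 0.23 (adjusted p = 9.95e-04), against −0.38 ± 0.13 in all members (adjusted p = 0.401).

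The further core genes that fell were Galntl6 (−1.02 ± 0.17), the kinesin Kif26b (−1.21 ± 0.21), Unc13c of the presynaptic release machinery (−0.97 ± 0.17), the M-current channel Kcnq5 (−0.95 ± 0.19), the neuronal splicing factor Rbfox3 (−0.76 ± 0.16) and Pcdh9. Kcnq5 was at 616, 1066, 487 and 379 CPM, and did not pass without Sel1L flox/flox replicate 2 (−0.52, adjusted p = 0.238). The noncoding Gm44643 rose by 1.15 ± 0.22. Gm47283 rose by 1.40 ± 0.28 (289, 113, 389 and 720 CPM) and is annotated on chromosome Y. It was counted in all 4 libraries, male and female, so its counts cannot all stem from chromosome Y. Leaving out Sel1L flox/flox replicate 1 or 2 gave 45 or 44 calls and Syn-Cre replicate 1 or 2 gave 74 or 34. Of the 14 genes, 9, 11, 13 and 10 were among them. The 5 calls lost without Sel1L flox/flox replicate 1 were those of Kif26b (−1.01, adjusted p = 0.0609), Cdh18 (−0.67, adjusted p = 0.0628), Rbfox3 (−0.64, adjusted p = 0.148), Pcdh9 (−0.57, adjusted p = 0.157) and Gm44643 (0.82, adjusted p = 0.181). Pcdh9 was also lost without flox/flox replicate 2, and Unc13c, Gm44643 and Rbfox3 without Syn-Cre replicate 2. The plot of called genes sets both fits side by side.

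**Figure D3:**
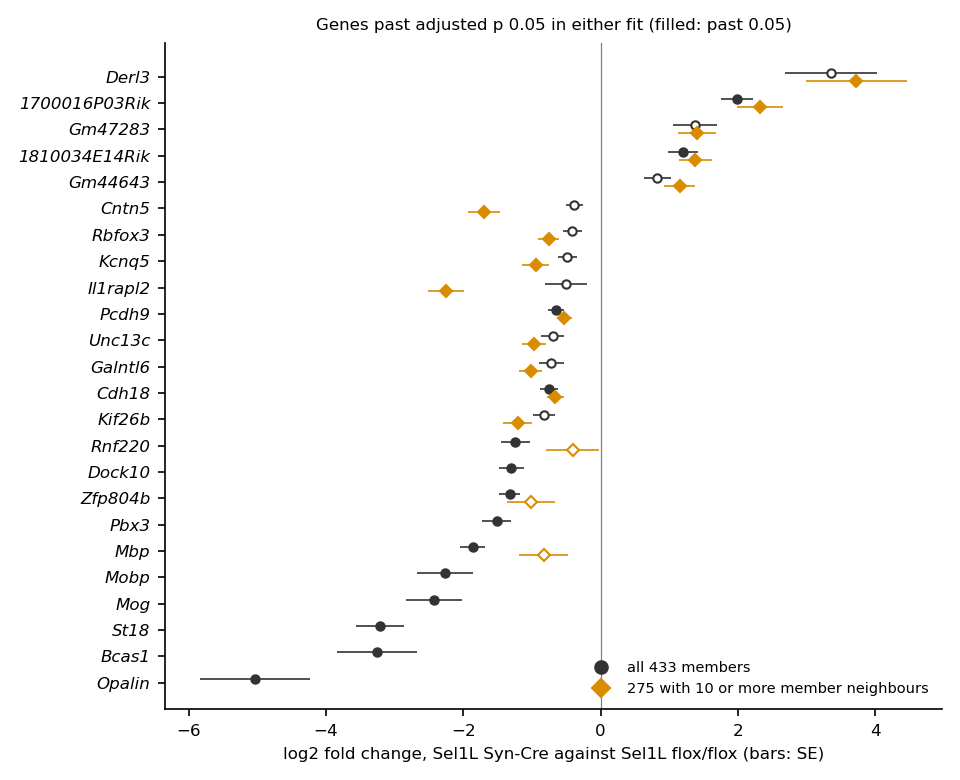
Log2 fold change (x axis, bars are SE) of the genes past an adjusted p of 0.05 that are reported here, in all 433 NP members (circles) or in the 275 core members (diamonds), filled where it passed. A missing diamond marks a gene not tested in core members, as for Opalin, which rests on 1 UMI in the Syn-Cre libraries; 1700016P03Rik, 1810034E14Rik, Cdh18 and Pcdh9 are filled in both.

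None of the ER stress genes passed in all members, although their summed level was above both flox/flox libraries in both libraries labelled Sel1L Syn-Cre. This list of 24 genes, targets of the UPR, was chosen with results of these nuclei known, so its counts are not independent evidence of its direction. It summed to 508, 522, 925 and 746 CPM in members. Other glutamatergic nuclei had 458, 443, 811 and 682 CPM. Of the 19 genes tested in members, 0 passed with edgeR (0.019% of all genes passed as higher), 9 were higher and 0 lower at an unadjusted p under 0.05 (4.15% of all genes), and 15 stood higher in both Syn-Cre libraries than in both flox/flox libraries (19.4% of all genes). None was among the 9 genes that DESeq2 called. With the replicate number, and so sex, as a term in the edgeR fit, which leaves 1 residual degree of freedom, 5 of the 19 passed as higher (Derl3, Dnajc3, Hspa5, Manf and Hsp90b1), and without a filter on low counts 4 of 24 did. With 1 library left out, 0 to 5 passed, 1 without Sel1L flox/flox replicate 1. The median log2 fold change was 0.63, against 0.01 over all genes. In core members it was 0.79, 13 of 16 genes stood higher in both Syn-Cre libraries (19.6% of all genes) and 1 passed.

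That gene was Derl3, which encodes a derlin of the ERAD channel (chr10:75893413-75895941, plus strand). It had 3, 0, 16 and 13 UMIs in core members (2.51, 0, 25.6 and 22.1 CPM), a fitted log2 fold change of 3.72 ± 0.73 (adjusted p = 0.0348). With so few UMIs in the flox/flox libraries the size is uncertain, and the ratio of summed levels was 14.8 (exact 95% counting interval 4.58 to 75.7). In all members it had 5, 0, 21 and 13 UMIs and a change of 3.36 ± 0.67 (adjusted p = 0.0759), with a ratio of 11.0 (4.29 to 36.1). Without Sel1L flox/flox replicate 1 the fit was against 0 UMIs and gave 7.02, which is no measure of size. The call in core members did not hold with DESeq2 (adjusted p = 0.594) or when Sel1L flox/flox replicate 2 (adjusted p = 0.132), Syn-Cre replicate 1 (0.422) or Syn-Cre replicate 2 (0.187) was left out of the edgeR fit. Derl3 changed by 3.85 in L4/5 IT-rule nuclei (adjusted p = 0.00665) and by 3.89 in L6 CT-rule nuclei (adjusted p = 0.0527).

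Chaperones followed, with edgeR adjusted p-values above the threshold in the fit without replicate number; with it the adjusted p was 6.45e-04 for Hspa5, 3.56e-04 for Dnajc3, 0.0236 for Hsp90b1 and 0.00943 for Manf. Hspa5, the chaperone BiP, was at 19.4, 29.3, 65.8 and 36.7 CPM (log2 fold change 1.16 ± 0.29, adjusted p = 0.193). Dnajc3, a co-chaperone of BiP that also inhibits PERK, was at 52.9, 51.7, 113 and 75.9 CPM (0.84 ± 0.20, adjusted p = 0.148). Hsp90b1, the chaperone GRP94, was at 59.1, 62.5, 107 and 80.7 CPM (0.63 ± 0.18, adjusted p = 0.283). In each of these, both Syn-Cre libraries stood above both flox/flox libraries, Syn-Cre replicate 1 highest. Manf, a secreted ER-stress factor, was at 45.0, 63.5, 87.8 and 86.3 CPM (0.74 ± 0.19, adjusted p = 0.219). Herpud1, an ERAD component, was at 21.2, 21.5, 35.5 and 38.3 CPM (0.79 ± 0.25, adjusted p = 0.379). Among members with no UMI of 8 marker genes of other cells, Herpud1 changed by 0.06. The change there was 1.70 for Hspa5, 0.83 for Dnajc3, 0.42 for Hsp90b1 and 0.83 for Manf, and none of these genes passed. Creb3l2 (1.53 ± 0.50) and Dnajb9 (1.19 ± 0.45) were low, at no more than 28 UMIs in any library. Leaving out 1 library moved several of these values. Without Syn-Cre replicate 1 the log2 fold change was 0.66 for Hspa5, 0.52 for Dnajc3, 0.40 for Hsp90b1 and 0.94 for Creb3l2. Without Sel1L flox/flox replicate 1 it was 0.36 for Dnajb9 and 0.45 for Manf, and neither passed. Without flox/flox replicate 2, Dnajb9 (1.87, edgeR adjusted p = 0.0191), Hspa5 (1.38, adjusted p = 1.46e-04), Manf (0.94, adjusted p = 0.00112) and Dnajc3 (0.82, adjusted p = 0.00643) passed, as did Hspa5 (1.51, adjusted p = 8.28e-04) and Dnajc3 (1.11, adjusted p = 0.00163) without Syn-Cre replicate 2.

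The promoters of this list were searched for the ER stress response element (ERSE, CCAAT and CCACG separated by 9 bases), on both strands of the 250 bases before each gene's start (RefSeq, GRCm38.p6). It was found for 8 of the 22 list genes with an entry (Calr, Creld2, Derl3, Dnajc3, Hsp90b1, Hspa5, Pdia6 and Syvn1), and in 0.13% of all 27025 genes. ERSE-II (ATTGG and CCACG separated by 1 base) was found for 1 of the 22, Herpud1, and in 0.037% of all genes. The UPRE core TGACGTGG was found for Sec24d (0.603% of all genes), CARE, TGATGCAA, for Herpud1 (0.918%), the cyclic AMP response element TGACGTCA for 0 (1.77%) and its part TGACG, which the UPRE core also holds, for 10 (19.8%). A match is a description of the letters and not evidence of binding. The windows of Derl3, where the element lies on the minus strand, and of Hspa5 are shown because both genes had high values in the Syn-Cre libraries, and the letters of the element are in capitals.
Derl3 (chr10:75893148-75893397, plus strand): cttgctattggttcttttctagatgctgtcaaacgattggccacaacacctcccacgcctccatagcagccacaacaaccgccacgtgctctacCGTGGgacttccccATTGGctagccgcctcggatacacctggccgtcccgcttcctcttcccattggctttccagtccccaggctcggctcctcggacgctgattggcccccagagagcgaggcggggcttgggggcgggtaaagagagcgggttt
Hspa5 (chr2:34771840-34772089, plus strand): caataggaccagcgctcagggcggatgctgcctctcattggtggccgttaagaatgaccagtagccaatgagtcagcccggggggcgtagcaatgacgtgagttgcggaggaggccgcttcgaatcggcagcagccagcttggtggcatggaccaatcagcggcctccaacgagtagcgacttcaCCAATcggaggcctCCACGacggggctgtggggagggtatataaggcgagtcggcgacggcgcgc

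Whether the ER stress genes were higher in all NP nuclei or in some was asked nucleus by nucleus, as the percentage of a nucleus's UMIs that fell on the list. The medians were 0.0522%, 0.0576%, 0.0790% and 0.0617%, and in core members 0.0531%, 0.0569%, 0.0778% and 0.0720%. Both Syn-Cre medians stood above both flox/flox medians in either set, and the upper end was then compared. Above 0.106%, the mean 95th percentile of the flox/flox libraries, lay 12 of 176 (6.82%, Wilson 95% interval 3.94 to 11.5), 4 of 77 (5.19%, 2.04 to 12.6), 25 of 85 (29.4%, 20.8 to 39.8) and 22 of 95 nuclei (23.2%, 15.8 to 32.6). Both Syn-Cre shares exceeded both flox/flox shares, whose size the threshold itself sets. The mean difference was 20.3 percentage points (p = 0.333 by a two-sided exact permutation test, which with 2 against 2 can give none smaller). It was 25.4 points in core members, 19.2 points with nuclei thinned to 5000 UMIs and 17.2 to 23.4 points with 1 library left out. The highest nucleus reached 0.368% in Syn-Cre replicate 1 and 0.333% in replicate 2, against 0.202% and 0.188% in the flox/flox libraries.

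**Figure D4:**
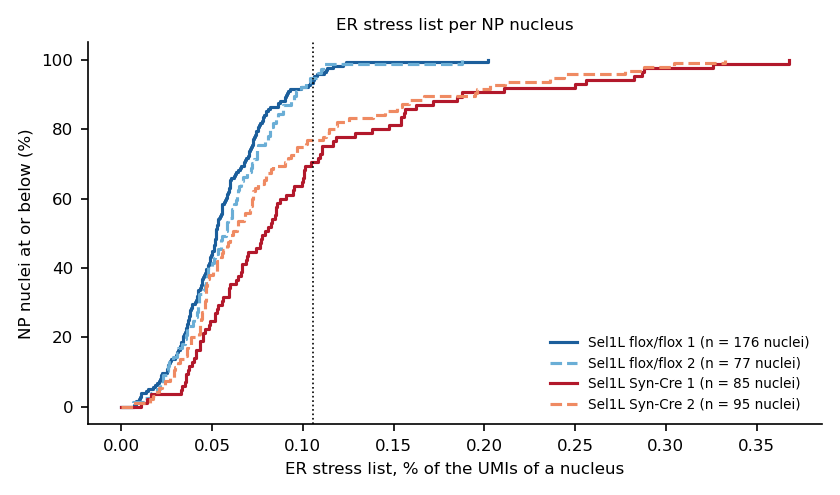
Cumulative share of NP nuclei (y axis, %) against the percentage of their UMIs on the 24 ER stress genes (x axis), 1 line per library. The dotted line is the threshold of 0.106%: 6.82% and 5.19% of nuclei of the flox/flox libraries and 29.4% and 23.2% of the Syn-Cre libraries lie beyond it.

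No gene of the other lists of the secretory pathway or of metabolism passed in all members (edgeR), and none of these lists' genes was among the DESeq2 calls. Counts at an unadjusted p under 0.05 are given beside 4.15% higher and 4.16% lower over all genes. Lists that share genes with the ER stress list are not separate from it, as with Creb3l2 among the UPR factors. Of 23 ERAD genes, 2 were higher (both in the ER stress list, Derl3 and Herpud1), with a median log2 fold change of 0.16. Of 17 ER chaperones and co-chaperones, 5 were higher (median 0.36). Of 17 disulfide isomerases and oxidases, 3 were higher (median 0.23). Of 27 genes of ER translocation, glycosylation and COPII vesicles, 4 were higher, with Spcs2 of the signal peptidase at 27.7, 27.3, 48.1 and 52.7 CPM (0.87 ± 0.21, adjusted p = 0.178), and the median was 0.28. Of 14 UPR sensors and transcription factors, 2 were higher, Creb3l2 and Atf5 (4.68, 4.88, 14.3 and 15.2 CPM), and the median was 0.24. Ddit3, which encodes CHOP, was too low in members to be tested.

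Of 11 serine, folate and methionine enzymes, 3 were higher at that p (median 0.29), among them phosphoserine phosphatase, Psph (11.2, 21.5, 23.6 and 26.4 CPM, adjusted p = 0.585). The medians were 0.19 for 19 aminoacyl-tRNA synthetases (2 higher) and 0.29 for 9 amino acid transporters (0 higher). For 17 cholesterol synthesis enzymes the median was −0.14 (1 lower), for 11 cytosolic heat shock genes 0.14 (1 higher) and for 6 p53 targets and apoptosis genes −0.13 (0 in either direction).

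Genes of excitability had medians below 0. Of 34 glutamate and GABA receptor subunits, 0 passed, 4 were lower and 0 higher at an unadjusted p under 0.05, and 13 stood lower in both Syn-Cre libraries (18.7% of all genes), with a median of −0.14. Gabra4, the α4 subunit of GABA-A receptors, was at 127, 154, 78.5 and 98.2 CPM (−0.65 ± 0.17, adjusted p = 0.206). Of 40 voltage-gated channels, 0 passed, 4 were lower and 1 higher at that p, and 16 stood lower in both Syn-Cre libraries (median −0.12). Cacna1c, an L-type calcium channel, was at 841, 734, 646 and 539 CPM (−0.41 ± 0.14, adjusted p = 0.391). In core members 1 channel, Kcnq5, passed as lower and the median was −0.18.

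The genotype effect in members was then compared with that in other glutamatergic nuclei, by a test of the difference of the effects with the library as a block. The reference classes were 1840 L6 CT-rule nuclei (Foxp2 and at least 3 of 7 CT markers) and 2205 L4/5 IT-rule nuclei (Rorb and at least 2 of 6 IT markers). These classes had 13 calls (7 higher, 0.05%, and 6 lower, 0.0428%) and 120 calls (76 higher, 0.512%, and 44 lower, 0.296%) between genotypes. Thinned to as many nuclei as NP had, in 1 random draw, they gave 35 and 76 calls, against 15 in NP members. Genes at an unadjusted p under 0.05 (edgeR) fell from 1560 to 824 in L6 CT and from 1938 to 1103 in L4/5 IT. Calls in L6 CT rose with fewer nuclei, so these counts do not rank the classes. The difference itself passed for 1 of 14343 genes against L6 CT (0.00697%) and for 11 of 14694 genes against L4/5 IT (0.0749%). Against L6 CT that gene was the noncoding Gm30382, with 332, 114, 95 and 101 UMIs in NP members and 777, 382, 693 and 1068 in L6 CT-rule nuclei (a difference of −1.38 ± 0.17 in log2 fold change, adjusted p = 0.0117). Its call was lost with DESeq2 and without the Scrublet doublets, where 0 genes differed from L6 CT.

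Against L4/5 IT, the genes whose difference passed included Nr4a3 and Nr4a2, immediate early genes of the Nr4a family. These nuclear receptors are induced within minutes by neuronal activity. Nr4a3 had 97, 30, 42 and 65 UMIs in NP members and 54, 16, 119 and 262 in L4/5 IT-rule nuclei. Its log2 fold change was 0.41 in NP members (adjusted p = 0.693) and 2.84 in L4/5 IT (adjusted p = 0.0125), and the difference was −2.36 ± 0.31 (adjusted p = 7.02e-04). Nr4a2 had 54, 23, 22 and 21 UMIs against 53, 15, 92 and 187, a difference of −2.60 ± 0.43 (adjusted p = 0.00783), which did not pass with core members alone (−1.79, adjusted p = 0.782). Nr4a1 changed by 0.24 and 0.92, and its difference did not pass (−0.65, adjusted p = 0.304).

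Of the 18 immediate early genes, 14 were tested in NP members and 0 passed (2 higher and 1 lower at an unadjusted p under 0.05, median 0.21). In L4/5 IT-rule nuclei 8 of 18 passed as higher and 1, Junb, as lower. In L6 CT-rule nuclei 1 passed, Homer1, a scaffold of the postsynaptic density (log2 fold change 1.57). At an unadjusted p under 0.05 (edgeR), each of these classes had 10 of 18 higher and 3 lower. The medians were 0.96 in L4/5 IT-rule nuclei and 0.70 in L6 CT-rule nuclei. Over all genes at that p, 1004 were higher and 934 lower of 14847 in L4/5 IT, and 863 and 697 of 14005 in L6 CT. In NP members Homer1 was at 148, 162, 239 and 174 CPM (0.42 ± 0.16, adjusted p = 0.474). Homer1 changed by 0.16 without Sel1L Syn-Cre replicate 1 and by 0.63 without Syn-Cre replicate 2. Its difference from L4/5 IT did not pass (−0.77, adjusted p = 0.0885), nor did that of Egr3 (−2.01, adjusted p = 0.150) or Fosl2 (−0.65, adjusted p = 0.921). In the main fit, a difference from L4/5 IT thus passed for Nr4a3 and Nr4a2 of this list and not for its other members. Over the alternatives run, the call of Nr4a3 held in all 9, and that of Nr4a2 held in 6 and was lost in 3. NP pseudobulks had 1069727 to 2877732 UMIs and L4/5 IT pseudobulks 5535955 to 9885757, so smaller changes could be called in L4/5 IT.

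**Figure D5:**
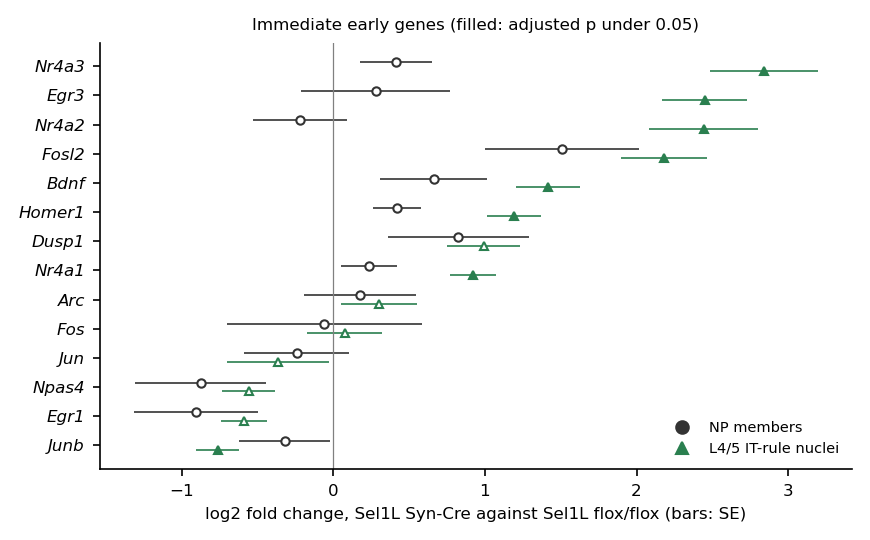
Log2 fold change (x axis, bars are SE) between genotypes of the immediate early genes tested in both NP members (circles) and L4/5 IT-rule nuclei (triangles), filled where the adjusted p was under 0.05. No circle is filled, and Nr4a3 and Nr4a2 lie at 0.41 and −0.22 in NP members against 2.84 and 2.44 in L4/5 IT.

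The other differences from L4/5 IT with smaller effects in NP members were Gfod1 (−0.35 in NP and 0.96 in L4/5 IT, a difference of −1.30 ± 0.17), Pdzd2 (−0.16 and 0.89, −1.04 ± 0.15), the salt-inducible kinase Sik2 (0.56 and 1.49, −0.89 ± 0.16), Trabd2b (−0.02 and 1.26, −1.26 ± 0.21) and the adhesion receptor Adgrd1 (−0.63 and 1.32, −1.88 ± 0.35). Cdh18 (−0.75 and 0.12, −0.88 ± 0.13), the growth factor Ptn (−0.99 and 0.17, −1.17 ± 0.19) and Mbp (−1.87 and −0.69, −1.18 ± 0.23) had the lower value in NP. The noncoding 6330411D24Rik had a difference of 6.15 ± 0.98 that rested on 1 library, with 9, 1, 1 and 47 UMIs in NP members, and was 1.85 without Sel1L Syn-Cre replicate 2 (adjusted p = 0.959). In core members Mbp differed by −0.06 (adjusted p = 0.999) and Ptn by −0.47 (adjusted p = 0.893), and 7 of the 11 genes passed. Without the Scrublet doublets 10 genes differed from L4/5 IT, and 6 of the 11 were among them. Without Sel1L flox/flox replicate 1 or 2 the number of genes that differed was 168 or 63 against L4/5 IT and 92 or 44 against L6 CT. Without Syn-Cre replicate 1 or 2 it was 71 or 48 and 32 or 26.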

How the data were processed

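Single-nucleus RNA was measured in 4 libraries. The authors ran Cell Ranger 6.1.0 with a GRCm38 reference (per the labels) and deposited raw UMI counts of 32286 features per nucleus, not normalized; whether reads in introns or on both strands were counted is not given in the sources used here. Scrublet scored doublets, and 0.8% per 1000 nuclei of a library were called, 55 of the 433 members among them (33, 5, 8 and 9); they were kept in the main result. Of 36619 barcodes, 123 were shared between libraries, 4 of them in members. Neighbours came from 30 principal components of 1996 variable genes (scanpy 1.11.5).

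Counts of nuclei that passed the rule were summed per library and compared with edgeR 4.0.16 (TMM, filterByExpr, quasi-likelihood F test, two-sided, no covariate, adjusted p under 0.05). SE was the absolute fold change over the root of F. Nuclei of a library are not replicates, so n is 2 mice per genotype, and p-values measure the spread between these mice. On simulated counts, the NP test recovered 109 of 196 genes changed by 1 on the log2 scale (4 others called) and 191 of 199 changed by 2 (3 others). The interaction test recovered 194 of 200 genes changed by 2 against L6 CT and 189 of 200 against L4/5 IT, with 3 others called in each. Of 2 overlapping features named Ddit3, the longer was used. Positions are from GENCODE vM21.

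Named genes were those that passed, with at least 20 counts, the members of the gene lists that passed and examples of those that did not, the targeted gene, and the 15 highest and 8 lowest ratios outside the rule, among genes at 20 CPM or more in members or 50 CPM or more in other glutamatergic nuclei. The members, lists and marker genes were chosen with earlier results of these data known, and the alternatives restricted to core members were, except for the count of calls, added after seeing the data. Genes of the core test, and the rest of those that passed, were named after their values were seen, except 1 gene that is not reported here. Alternatives were DESeq2 1.42.0, other count filters and thresholds of the rule, no doublets, a replicate block, a minimum fold (log2 of 1) and each library left out.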

Additional observations from a re-analysis of the deposited data

Results flagged for a closer look

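A difference of the genotype effect between NP members and another class passed for 12 genes (edgeR interaction term). Against L6 CT-rule nuclei it was −1.38 for Gm30382, which did not pass with DESeq2 or without the Scrublet doublets. Against L4/5 IT-rule nuclei it was −1.30 for Gfod1, −2.36 for Nr4a3, −0.88 for Cdh18, −1.04 for Pdzd2, −1.17 for Ptn, −2.60 for Nr4a2, −1.26 for Trabd2b, −0.89 for Sik2, −1.88 for Adgrd1, −1.18 for Mbp and 6.15 for 6330411D24Rik. Nr4a3, Cdh18, Gfod1 and Pdzd2 were among those past the threshold with core members alone. Mbp was not, and the oligodendrocyte markers of the members moved with it (444, 302, 87.0 and 101 CPM); their part in the difference was not tested.

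The CRE feature, which lies outside the gene comparisons, had 490 UMIs in kept nuclei of the library labelled Sel1L flox/flox replicate 1, whose label carries no Cre, and 0 in replicate 2. Without that library, 91 genes in place of 15 were called in NP members, with 12 in common. The cause was not tested.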

How the results depend on the processing

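The number of genes called in all members was 15. It was 9 with DESeq2, 135 without a filter on low counts, 2 when tested against a log2 fold of 1, 2 without Scrublet doublets, 2 with 2 of the 7 markers required, 0 with 4 of the 7 (492 genes at an unadjusted p under 0.05) and 0 in members with no UMI of 8 markers of other cells (438 genes); leaving out 1 library gave 53 to 188. In core members it was 14, against 3 with DESeq2 and 34 to 74 with 1 library left out. The count against L6 CT was 1, against 0 with DESeq2 (84 genes at an unadjusted p under 0.05), 42 without a filter, 4 with thinned reference nuclei, 0 without doublets (701 genes), 10 with core members and 26 to 92 with 1 library left out. Against L4/5 IT it was 11, against 3, 104, 20, 10, 21 and 48 to 168. Of these 11 genes, 6 were among the 10 called without doublets. The difference in the share of nuclei high in the ER stress list was 25.4 points in core members, and the NP share difference turned to 0.0156 points over all kept nuclei, to 0.172 points with 2 of the 7 markers, and ranged from −0.656 to 0.337 points with 1 library left out. Of single genes, Zfp804b (0.18), Pbx3 (0.57) and Cntn5 (0.15) turned positive in members without markers of other cells and Il1rapl2 ranged from −1.48 to 0.061 with 1 library left out, positive without Sel1L Syn-Cre replicate 1. Except where a value shows otherwise, the cause was not tested. With 2 mice per genotype, and 77 to 176 members per library, changes of 1 on the log2 scale were recovered in part only in simulated counts.

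The genotypes share replicate numbers, which the labels do not tie to a litter or batch. With the replicate block, 132 genes were called in all members (42 higher, 90 lower, all 15 among them) and 34 in core members, and of the ER stress list 5 genes in place of 0 in all members and 3 in place of 1 in core members; the deviations of the replicate 1 libraries correlated at r = 0.163 across 10533 genes, which are not independent, and only 2 pairs exist.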
